A study of Drosophila melanogaster with 12 samples.

Results

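Aminoacyl-tRNA synthetases, the enzymes that join each amino acid to its tRNA, were followed in neural cells of Drosophila melanogaster embryos with and without a functional prospero gene. Members were taken by name: every gene whose symbol in the platform's probe table ends in RS, or in RS-m for the enzymes of the mitochondrion, after a lower-case letter. This gave 21 of the 11980 named genes on the arrays, 11 cytosolic and 10 mitochondrial, each with 1 probe. A further probe was listed for both Surf4 and SerRS-m and was not counted; its mutant minus wildtype difference in log2 ratio was -1.28 (SE 0.70, limma adjusted p = 0.281). The RefSeq gene table of the species holds 35 genes that fit the name rule, and the other 14 (SerRS-m among them) were not analysed here.

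The prospero mutant group was 6 samples homozygous for the pros17 allele, and the group called wildtype was 6 samples of pros17 over the balancer TM3-KrGFP, so the control animals carried 1 mutant copy. Each sample was a pool of 50 to 100 lysed cells of the ventral nerve cord at embryonic stage 11 (25 degrees C): neuroblasts, the neural stem cells, and ganglion mother cells (GMCs), their smaller progeny. Each had its own 2-colour array, with RNA of about 30 entire w1118 embryos (stages 10 to 12) as the common reference. Replicates 1 to 3 of either group had the cells in Cy3, replicates 4 to 6 in Cy5, so an effect of the dye cannot be told apart from one of the replicate set. Nothing in the labels ties samples to separate embryos, so p-values reflect just the variation among these samples, which may be technical. Because chromosome 3 carried a balancer in the wildtype group only, mutation and third-chromosome background cannot be told apart for any gene, and least of all for genes on 3L and 3R.

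Synthetases work in a pair of cell compartments. Most animal cells encode separate cytosolic and mitochondrial enzymes for the same amino acid, all from nuclear genes, and a few genes serve both places. They fall into class I and class II by the fold of the catalytic domain. In animals several cytosolic enzymes, among them those for glutamine, isoleucine and leucine and the fused glutamyl-prolyl enzyme, are held together with scaffold proteins in a multi-synthetase complex. Growing and dividing cells such as neuroblasts need charged tRNA for protein synthesis.

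Each value is a deposited log2 ratio, read as cells over reference, and a difference is mutant minus wildtype on the log2 scale. The direction of the ratio is likely and is not stated in the labels. It rests on tissue markers set against a whole-embryo reference. On all 12 arrays the neuroblast and GMC markers had a median above 0. That median was 2.11 to 2.76 in mutant and 0.17 to 2.32 in wildtype samples. Of these markers, mira and insc were each above 0 in 6 of 6 mutant samples but below 0 in 4 of 6 wildtype samples. The epidermal marker with ratios, pnr, was below 0 on all 12 arrays. The median of the mesoderm and muscle markers was -3.63 to -0.69 in mutant samples. In wildtype samples that median was -0.94 to 1.15, above 0 only in replicate 1. Within this list twi was above 0 in 4 of 6 mutant and 6 of 6 wildtype samples. Other lists did not follow this reading. The median of the hemocyte and fat body markers was above 0 on all 12 arrays. It was 0.079 to 1.13 in mutant and 0.21 to 1.53 in wildtype samples. Within that list vkg was below 0 in 6 of 6 mutant and 5 of 6 wildtype samples. The median of the neuronal markers was below 0 in all 6 mutant samples (-4.62 to -0.12), although elav was above 0 in 6 of 6. A spot at exactly 0, or with signal in 1 channel only, was treated as having no ratio, which left 8421 to 10030 ratios per array. No spot intensities were used here, so the signal over background behind a ratio is unknown, and the number of arrays limits the precision. The prospero transcript, which checks the labels, was at -2.99 ± 0.69 in mutant and 2.17 ± 0.99 in wildtype samples (SD, n = 6 each), a difference of -5.16 (SE 0.36, limma adjusted p = 5.68e-05).

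Relative to the whole embryo, the synthetases had no common level. Of the 21 genes, 5 were above 0 on every array that gave a ratio (alpha-PheRS, ThrRS, AspRS-m, PheRS-m and ValRS-m). Another 6 were below 0 on every such array (AlaRS, GluProRS, IleRS, LeuRS, ArgRS-m and TyrRS-m). Over the 19 genes with enough ratios to be tested, 52.6% were on 1 side of 0 throughout, against 42.6% of all 8165 rows tested. The zero line depends on an unknown centring. After each array was centred on the median of its named genes, 2 genes remained above on every array (alpha-PheRS and ValRS-m) and 5 below (GluProRS, IleRS, LeuRS, ArgRS-m and TyrRS-m). Centring turned the comparison round: 31.6% of the 19 tested members then kept to 1 side, against 42.0% of all rows.

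The highest mean ratio in the mutant was that of AspRS-m, which charges mitochondrial tRNA with aspartate; in wildtype that of beta-PheRS was higher. AspRS-m averaged 1.88 ± 0.57 in mutant and 1.66 ± 0.78 in wildtype samples (SD, n = 6 each), and its median rank among the named genes of an array was the 89.0th percentile in the mutant and the 85.6th in wildtype. Among the genes low on every array were 3 enzymes of the multi-synthetase complex. GluProRS, the fused glutamyl-prolyl enzyme, averaged -1.86 ± 0.30 over 6 mutant samples and -1.59 ± 0.26 over 4 wildtype samples. IleRS averaged -1.80 ± 0.37 and LeuRS -1.35 ± 0.29 in mutant samples (SD, n = 6), against -1.39 ± 0.43 and -1.29 ± 0.48 in wildtype samples (SD, n = 6). On no array did GluProRS rank above the 17.5th percentile, IleRS above the 21.1st or LeuRS above the 26.3rd. GlnRS, the other enzyme of the complex with a probe here, was not low: it averaged 0.19 ± 0.88 in mutant and 1.11 ± 1.26 in wildtype samples (SD, n = 6 each). A ratio against the embryo is not an abundance, and a low ratio does not say that a transcript was rare.

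**Figure D1:**
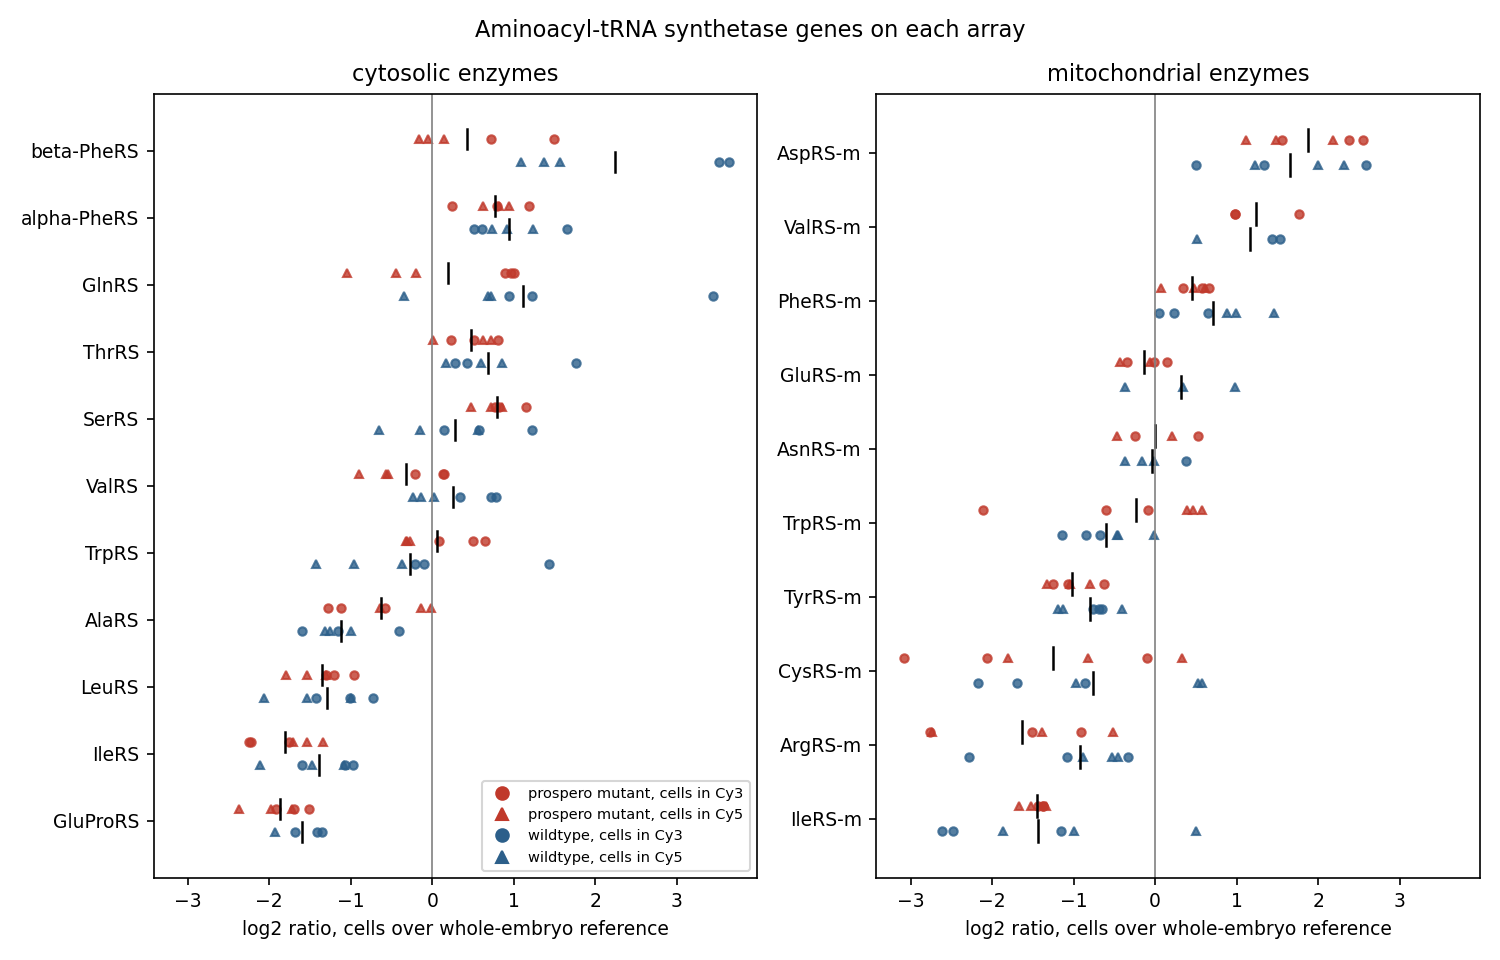
Log2 ratio of cells over the whole-embryo reference for the 21 synthetase genes, 1 point per array, mutant samples (red) above wildtype samples (blue), circles for cells in Cy3 and triangles for cells in Cy5, and a black bar at each group mean. GluProRS, IleRS and LeuRS lie below 0 on every array with a ratio, AspRS-m lies above 0 on every array, and beta-PheRS is the cytosolic gene whose groups stand farthest apart.

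Between the groups, 1 of the 19 tested synthetase genes passed the threshold, an adjusted p under 0.05 in limma with Benjamini-Hochberg adjustment over all 8165 rows. That is 5.26% of the members, beside 4.95% of all rows, so the share of members called was near the background. The 1 called gene was lower in the mutant, as were 3.37% of all rows, and no member rose, beside 1.58% of all rows; at an unadjusted p under 0.05 there were 3 members, against 25.9% of all rows. The median difference of the 19 was -0.18, and that of all rows was -0.13. GluRS-m and ValRS-m had too few ratios to be tested.

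The gene that fell was beta-PheRS, on chromosome arm 3R, which encodes the beta subunit of cytosolic phenylalanyl-tRNA synthetase, a tetramer of alpha and beta chains. With the cells in Cy3 its ratio was 1.49 and 0.72 in mutant replicates 1 and 3, against 3.65 and 3.52 in wildtype replicates 1 and 2. The Cy5 arrays gave -0.048, -0.16 and 0.15 in mutant replicates 4 to 6, against 1.37, 1.57 and 1.09 in wildtype replicates 4 to 6. Mutant replicate 2 and wildtype replicate 3 stood at exactly 0 and were treated as missing. Within each dye orientation every mutant value was thus below every wildtype value, whereas over both orientations the groups overlapped, because mutant replicate 1 exceeded 2 wildtype Cy5 arrays.

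The fitted difference of beta-PheRS was -1.81 (SE 0.28, limma adjusted p = 0.0124), a 3.51-fold lower ratio in the mutant with a 95% interval of 2.28 to 5.41. Its group means were 0.43 ± 0.68 in mutant and 2.24 ± 1.24 in wildtype samples (SD, n = 5 each). The exact permutation test, two-sided, gave p = 0.0238 for the difference in means over all 252 splits of the arrays. Those splits mix the dye orientations. Over the 120 splits within the orientations an exact two-sided permutation test gave p = 0.0167, the smallest p these splits can give. In Cy3 alone the difference was -2.48 (limma adjusted p = 0.189), and in Cy5 alone -1.36 (limma adjusted p = 0.0375). The test of the difference between these orientations did not pass (1.12, SE 0.45, limma adjusted p = 0.282). Of the members, 0 passed in Cy3 and 1 in Cy5, beside 0.0254% and 6.9% of all rows. The orientation test called 0 of 19 members, beside 0.416% of all rows, and 2 at an unadjusted p under 0.05 (beta-PheRS and PheRS-m), beside 15.7%.

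The call for beta-PheRS held without each single array that gave it a ratio (differences -1.94 to -1.59, limma adjusted p of 0.0161 to 0.0319). Leaving out mutant replicate 2 or wildtype replicate 3, where it had no ratio, removed none of its values. It was lost without the dye term (-1.81, limma adjusted p = 0.113) and with zeros kept as measured values (-1.51, limma adjusted p = 0.248).

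The alpha subunit of the same enzyme, encoded on the X chromosome, did not pass. In mutant samples alpha-PheRS had a lowest ratio of 0.25, a median of 0.80 and a highest of 1.18, against 0.51, 0.83 and 1.66 in wildtype samples. The groups overlapped, and the difference was -0.18 (95% interval -0.71 to 0.36, limma adjusted p = 0.688), an interval that does not reach the fall of beta-PheRS. Its mean was 0.77 ± 0.32 in mutant and 0.95 ± 0.43 in wildtype samples (SD, n = 6 each).

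Taken within each array, beta-PheRS minus alpha-PheRS averaged -0.25 ± 0.92 in mutant and 1.23 ± 1.30 in wildtype samples (SD, n = 5 each). Beta exceeded alpha on 1 of 5 mutant arrays and on 4 of 5 wildtype arrays. With the cells in Cy3 it ran from -0.071 to 1.24 in the mutant and from 1.86 to 3.14 in wildtype, and in Cy5 from -0.99 to -0.48 in the mutant and from -0.15 to 0.84 in wildtype. The groups were apart within each orientation and overlapped over both. An exact two-sided permutation test of the group difference (-1.48), chosen after the values had been seen, gave p = 0.0714 over all 252 splits. Those splits mix the dye orientations. For the same comparison, an exact two-sided permutation test over the 120 splits within the orientations gave p = 0.0167. That is the smallest p these splits can give, and the difference averaged over the orientations was -1.55.

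PheRS-m, the single-chain mitochondrial enzyme for the same amino acid, had a lowest ratio of 0.076, a median of 0.53 and a highest of 0.66 in mutant samples, against 0.045, 0.77 and 1.46 in wildtype samples. Its difference was -0.26 (95% interval -0.76 to 0.25, limma adjusted p = 0.528). In Cy5 every mutant value lay below every wildtype value and the difference was -0.72 (limma adjusted p = 0.203), while in Cy3 the groups overlapped and it was 0.21 (limma adjusted p = 0.790).

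**Figure D2:**
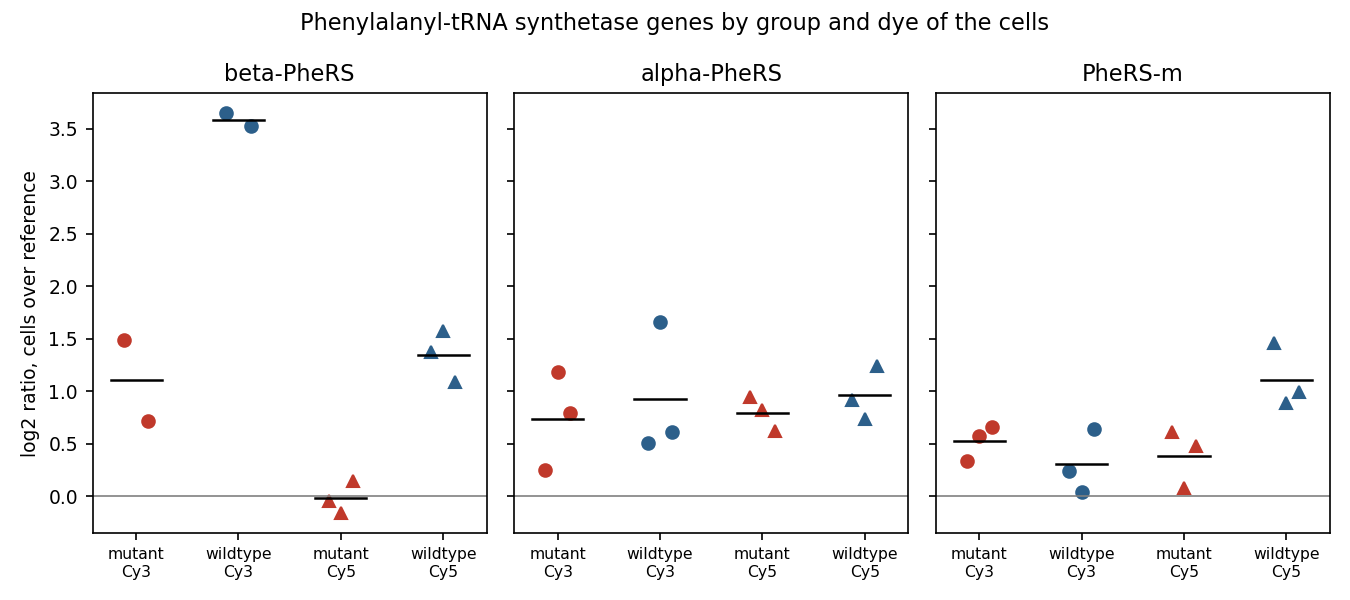
Log2 ratios of cells over reference for the phenylalanyl-tRNA synthetase genes, 1 point per array, by group and dye of the cells, with a black bar at the mean of each set. The beta subunit is lower in the mutant in each orientation (1.49 and 0.72 against 3.65 and 3.52 in Cy3), whereas the groups of the alpha subunit overlap in each orientation.

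The ratio of beta-PheRS also differed between the dye orientations, being lower on the Cy5 arrays (replicates 4 to 6) by 1.68 (SE 0.28, limma adjusted p = 0.0143). In the same fit GlnRS fell by 1.52 and ValRS by 0.71 with the cells in Cy5 (limma adjusted p = 0.0352 and 0.0234). These 3 of 19 members, 0 of them higher in Cy5, compare with 11% of all rows called between the orientations. All 3 genes are cytosolic, and they are also the 3 members with the smallest p between mutant and wildtype. The fit carries dye as a term, and in each of these genes the mutant mean was below the wildtype mean in each orientation.

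ValRS, the cytosolic valyl enzyme on 2R, missed the threshold. Its ratio had a lowest value of -0.90, a median of -0.38 and a highest of 0.14 in mutant samples, against -0.23, 0.18 and 0.78 in wildtype samples. The groups overlapped over all arrays but not within either orientation. Such a separation in the same direction in each orientation was found in 2 of the 17 members that could be examined, beta-PheRS and ValRS, and in 6.11% of all rows with enough ratios. No member had groups apart over all arrays (0 of 19, beside 3.48% of all rows). The difference was -0.58 (SE 0.17, limma adjusted p = 0.0621), with -0.60 in Cy3 and -0.56 in Cy5. An exact two-sided permutation test over splits that mix the dye orientations gave p = 0.0498. ValRS passed with zeros kept (limma adjusted p = 0.0429) and among the rows with a ratio on all arrays (limma adjusted p just under 0.05). It has a ratio on every array, so in these settings only the other rows changed and not its own values. Its difference was -0.37 (limma adjusted p = 0.156) after median centring.

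GlnRS, on 3R, had a lowest ratio of -1.05, a median of 0.35 and a highest of 1.001 in mutant samples, against -0.35, 0.83 and 3.45 in wildtype samples. The highest value was that of wildtype replicate 3. The difference was -0.92 (95% interval -1.79 to -0.046, limma adjusted p = 0.171) and had the same size in each orientation, -0.92. Without single arrays it ran from -1.12 to -0.57, and the adjusted p stayed between 0.0989 and 0.286.

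The remaining cytosolic genes did not pass, and their differences lay on both sides of 0. SerRS, the seryl enzyme, was above 0 in 6 of 6 mutant samples (0.48 to 1.15, median 0.79) and in 4 of 6 wildtype samples (-0.65 to 1.22, median 0.35), with a difference of 0.51 (limma adjusted p = 0.235). AlaRS, the alanyl enzyme, ran from -1.28 to -0.014 with a median of -0.61 in the mutant and from -1.60 to -0.41 with a median of -1.20 in wildtype, with a difference of 0.49 (limma adjusted p = 0.273). The AlaRS groups were apart in Cy5, where the difference was 0.92, and overlapped in Cy3, where it was 0.059. How many of all rows are apart in a single orientation was not counted. Such separations, here and for PheRS-m, IleRS, TrpRS and TrpRS-m, are thus given without a background share.

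IleRS ran from -2.25 to -1.34 with a median of -1.73 in the mutant and from -2.11 to -0.98 with a median of -1.28 in wildtype. Its difference was -0.42 (limma adjusted p = 0.326), made up of -0.86 in Cy3, where the groups were apart, and 0.03 in Cy5, where they overlapped. The other 4 besides alpha-PheRS had differences from -0.20 for ThrRS to 0.33 for TrpRS, with GluProRS at -0.18 and LeuRS at -0.056 between them. The groups of TrpRS were apart in Cy5, with the mutant higher by 0.62, and overlapped in Cy3 (0.041).

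No mitochondrial enzyme passed (0 of 8 in limma, beside 4.95% of all rows, and 0 at an unadjusted p under 0.05, beside 25.9%), and the smallest adjusted p was 0.349. That was ArgRS-m, the arginyl enzyme on 3R, which ran from -2.76 to -0.52 with a median of -1.45 in the mutant and from -2.29 to -0.33 with a median of -0.71 in wildtype. Its difference was -0.71 (95% interval -1.70 to 0.28). TrpRS-m, the tryptophanyl enzyme, was below 0 in 3 of 6 mutant samples (-2.12 to 0.57, median 0.15) and in 6 of 6 wildtype samples (-1.14 to -0.013, median -0.57), and its difference was 0.37 (limma adjusted p = 0.514). The 3 mutant samples above 0 were the 3 with the cells in Cy5, where the groups were apart (difference 0.79).

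CysRS-m, the cysteinyl enzyme, had the largest SE of the 19 tested members. It ran from -3.08 to 0.33 with a median of -1.32 in mutant samples and from -2.18 to 0.58 with a median of -0.91 in wildtype samples, and its difference of -0.49 had an SE of 0.54 (limma adjusted p = 0.612). TyrRS-m, the tyrosyl enzyme, had the smallest SE of the mitochondrial group, 0.20. It ran from -1.33 to -0.63 with a median of -1.06 in the mutant and from -1.19 to -0.40 with a median of -0.72 in wildtype. The difference of TyrRS-m was -0.22 (95% interval -0.66 to 0.22, limma adjusted p = 0.535). AspRS-m ran from 1.11 to 2.56 with a median of 1.87 in the mutant and from 0.50 to 2.59 with a median of 1.67 in wildtype, with a difference of 0.22 (limma adjusted p = 0.761).

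IleRS-m, the isoleucyl enzyme, had nearly equal means, -1.45 ± 0.13 in mutant and -1.44 ± 1.16 in wildtype samples (SD, n = 6 each), but the wildtype samples were spread from -2.62 in replicate 1 to 0.50 in replicate 6. The mutant samples lay between -1.67 and -1.33. AsnRS-m, the asparaginyl enzyme, had 4 ratios in each group and a difference of -0.056 (95% interval -0.75 to 0.64). GluRS-m, with 5 mutant and 3 wildtype ratios, averaged -0.14 ± 0.24 in the mutant and 0.32 ± 0.68 in wildtype (SD). ValRS-m had 3 ratios per group, at 0.97, 1.77 and 0.98 in mutant replicates 1 to 3 and at 1.43, 1.53 and 0.51 in wildtype replicates 1, 2 and 5.

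**Figure D3:**
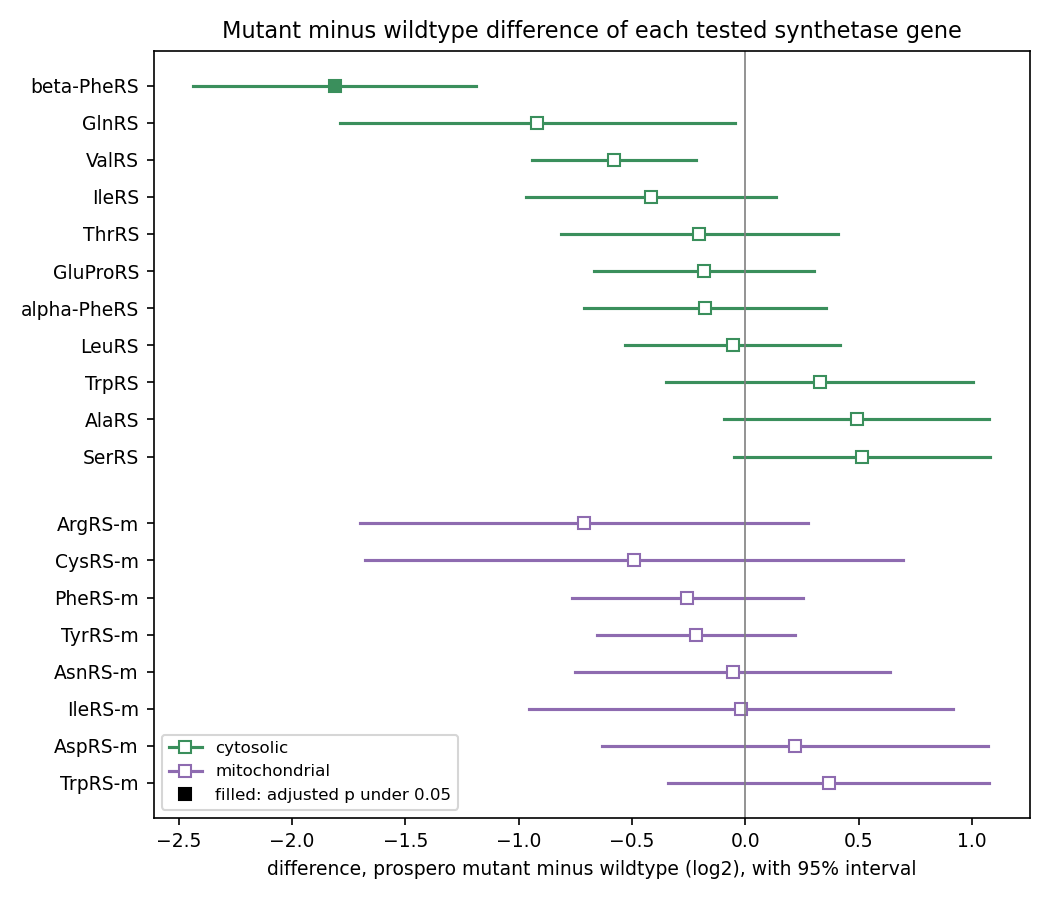
Difference of each of the 19 tested synthetase genes, prospero mutant minus wildtype on the log2 scale, as a square with its 95% interval, green for cytosolic and purple for mitochondrial enzymes, and filled where the adjusted p is under 0.05. The filled square is beta-PheRS at -1.81, and the 8 mitochondrial intervals all include 0.

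The cytosolic and mitochondrial enzymes were then compared by their mutant minus wildtype differences. The 11 cytosolic genes had a median difference of -0.18 (-1.81 to 0.51), with 1 fall and 0 rises. The 8 tested mitochondrial genes had a median difference of -0.14 (-0.71 to 0.37), with 0 falls and 0 rises. All rows had a median of -0.13. Centring the arrays turned the signs, to 0.019 for cytosolic enzymes, 0.073 for mitochondrial enzymes and 0.078 for all rows. By dye, the cytosolic median was -0.23 in Cy3 and -0.051 in Cy5, and the mitochondrial median was -0.052 in Cy3 and -0.49 in Cy5. All rows had -0.13 in Cy3 and -0.087 in Cy5, so the mitochondrial median lay below that of all rows in Cy5 and above it in Cy3.

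The levels of the compartments were set side by side on each array. Over the 9 cytosolic and 7 mitochondrial genes with a ratio on all 12 arrays, the cytosolic median exceeded the mitochondrial median on 5 of 6 mutant arrays and on 4 of 6 wildtype arrays. In Cy3 it did so on 3 of 3 arrays of each group, by 1.01 ± 0.54 in the mutant and 1.38 ± 0.55 in wildtype (SD, n = 3 each). In Cy5 it did so on 2 of 3 mutant arrays (0.28 ± 0.89) and on 1 of 3 wildtype arrays (-0.37 ± 0.47). The exceptions were mutant replicate 6 and wildtype replicates 5 and 6. Whether the gap differs between the orientations was not tested.

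**Figure D4:**
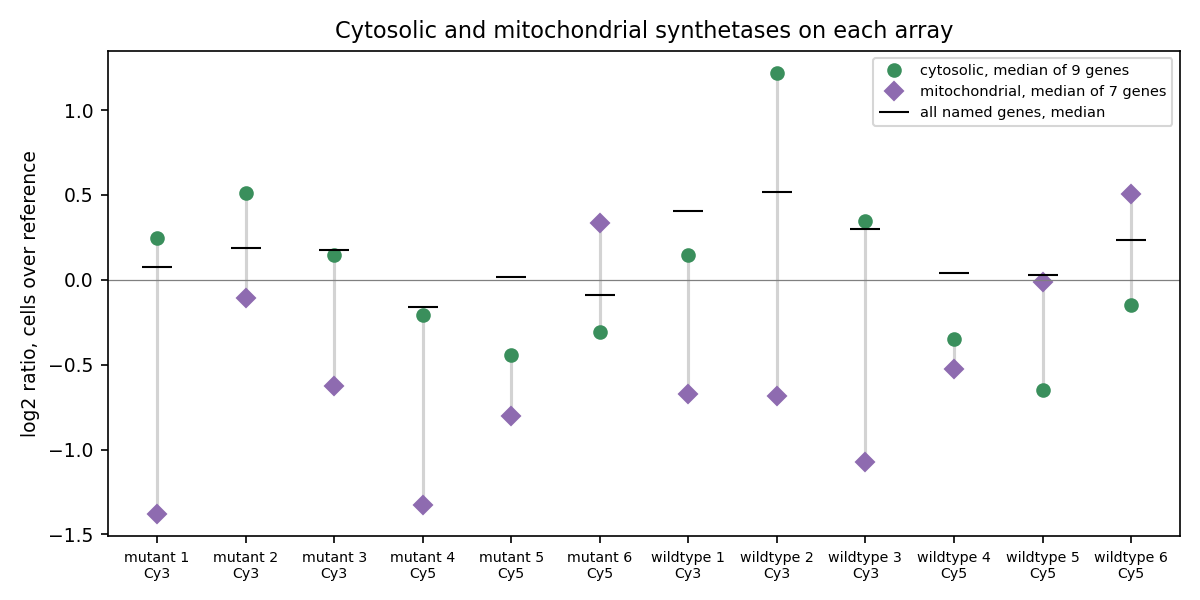
Median log2 ratio of 9 cytosolic (green circles) and 7 mitochondrial (purple diamonds) synthetase genes on each of the 12 arrays, mutant arrays left of wildtype arrays, with a black dash at the median of all named genes. Cytosolic medians lie above mitochondrial ones on all 6 Cy3 arrays and on 3 of the 6 Cy5 arrays.

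For isoleucine, tryptophan, valine and phenylalanine both a cytosolic and a mitochondrial gene were measured, so the pair could be compared within an array. IleRS minus IleRS-m averaged -0.35 ± 0.43 in mutant and 0.05 ± 1.09 in wildtype samples (SD, n = 6 each). In Cy3 it lay at -0.87 to -0.33 in the mutant and at 0.18 to 1.54 in wildtype, and in Cy5 at -0.20 to 0.19 in the mutant and at -1.59 to -0.24 in wildtype. The groups of this pair were thus apart in each orientation but in opposite directions. How often this occurs among other gene pairs was not counted.

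TrpRS minus TrpRS-m averaged 0.29 ± 1.36 in the mutant and 0.32 ± 1.26 in wildtype (SD, n = 6 each), and was above 0 on all 6 Cy3 arrays. In Cy5 it was below 0 on all 3 mutant arrays (-0.88 to -0.72) and ran from -1.41 to 0.097 on the wildtype arrays. ValRS minus ValRS-m averaged -1.22 ± 0.40 in the mutant and -0.70 ± 0.091 in wildtype (SD, n = 3 each), below 0 on every array that measured both. Alpha-PheRS minus PheRS-m averaged 0.31 ± 0.32 in the mutant and 0.24 ± 0.74 in wildtype (SD, n = 6 each). Beta-PheRS exceeded PheRS-m on 2 of 5 mutant arrays and on 4 of 5 wildtype arrays.

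By class, of 10 tested class I enzymes 0 passed, with a median difference of -0.32. Of 8 tested class II enzymes 1 fell, beta-PheRS, with a median of -0.12. GluProRS joins an enzyme of each class and was counted in neither. The 4 enzymes of the multi-synthetase complex (GlnRS, GluProRS, IleRS and LeuRS) had differences of -0.92 to -0.056 and a median of -0.30, and 0 passed, with 1 at an unadjusted p under 0.05. The shares of all rows were 4.95% and 25.9%.

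Genes that work beside the synthetases were examined through lists of 41 genes, of which 30 were tested. In all, 1 fell, beside 3.37% of all rows, and 0 rose, beside 1.58%. At an unadjusted p under 0.05 there were 7 of the 30, against 25.9% of all rows. The fall was that of eEF1alpha2 on 3R, an isoform of the elongation factor that brings charged tRNA to the ribosome. It averaged -1.76 ± 0.41 in mutant and 0.30 ± 1.42 in wildtype samples (SD, n = 6 each), a difference of -2.06 (SE 0.51, limma adjusted p = 0.0410). The difference was -0.80 in Cy3 (limma adjusted p = 0.594) and -3.33 in Cy5 (limma adjusted p = 0.00719), and the test between the orientations did not pass (-2.52, limma adjusted p = 0.131; unadjusted p = 0.00493). The call stood in 4 of 12 fits without a single array and was lost without mutant replicates 1, 4, 5 or 6 or wildtype replicates 3, 4, 5 or 6 (limma adjusted p of 0.0132 to 0.0999 over the 12).

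Of the scaffold proteins of the multi-synthetase complex, AIMP1, AIMP2 and AIMP3 had differences of 0.022, -0.37 and 0.31, and none passed (limma adjusted p = 0.967, 0.342 and 0.434). Among the other relatives, 0 of the 3 tested passed; the smallest p belonged to Dtd, a proofreading enzyme that removes D-amino acids from tRNA (-1.20, limma adjusted p = 0.0612). Of 10 tRNA maturation and modification genes 0 passed, with 2 at an unadjusted p under 0.05 in limma, Elp2 of the Elongator complex (-0.87, limma adjusted p = 0.0653) and the tRNA ligase gene RtcB (-1.005, limma adjusted p = 0.144). Of 5 mitochondrial elongation genes 0 passed, with 2 at an unadjusted p under 0.05, mEFTu1 (-0.79, limma adjusted p = 0.0574) and mEFTs (-0.54, limma adjusted p = 0.132). Of 5 genes of the integrated stress response, which Gcn2 starts when it senses uncharged tRNA, 0 passed; Gcn2 itself was at -0.80 (limma adjusted p = 0.0554).

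Markers of several cell types differed between the groups, and fewer cells of a type cannot be told apart from less RNA per cell in such pools. Over all rows, 1.58% rose and 3.37% fell. Of 5 neuroblast and GMC markers 3 rose (dpn, ase and mira). The summed ratio of the 5 to the reference, on a linear scale, was 25.4 to 42.0 in mutant and 6.16 to 24.6 in wildtype samples. In such sums a missing ratio added nothing. Of 3 neuronal markers 2 fell (nSyb and VAChT), and elav did not pass (0.14, limma adjusted p = 0.840). The summed ratio of the 3 was 3.56 to 8.35 in mutant and 4.60 to 22.7 in wildtype samples. In mutant samples elav made up most of that sum, with a mean log2 ratio of 2.58. The means of nSyb and VAChT there were -3.19 and -2.94. Of 4 glial markers 1 fell (repo), with a summed ratio of 2.46 to 7.67 in mutant and 5.67 to 21.2 in wildtype samples. Of 3 mesoderm and muscle markers 1 fell (htl), with 1.15 to 3.49 in mutant and 2.35 to 12.6 in wildtype samples. Of 5 tested hemocyte and fat body markers 1 rose (SPARC), with 7.79 to 13.3 in mutant and 4.63 to 13.1 in wildtype samples. The 1 epidermal and tracheal marker tested, pnr, rose, with a summed ratio of 0.11 to 0.56 in mutant and 0.024 to 0.18 in wildtype samples. Of 2 gut and yolk markers 0 passed, with 0.23 to 0.95 in mutant and 0.33 to 2.86 in wildtype samples. Without a single array, the calls of ase, htl, repo and pnr stood in 3, 1, 9 and 7 of 12 fits, and those of the other 5 genes in all 12. The part of these shifts in the falls of beta-PheRS and eEF1alpha2 was not tested.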

How the data were processed

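The deposited table holds log2 ratios of 14569 probes on 12 arrays. How the authors scanned, background-corrected and normalized the arrays is not given in the sources used here. Base 2 was read from the values: the levels of 1-channel spots were evenly spaced in base 2 on 10 of 11 arrays (average deviation under 0.1 of the spacing), and in base e or 10 on none (0). Arrays of opposite dye orientation correlated at 0.515 or above, so all ratios were taken to run the same way. Exact zeros (22.1% to 38.6% of probes per array) and values beyond 11 in size were set to missing. Probes with 1 gene symbol (12658) were named through the platform annotation and the RefSeq gene table (12012 found, 0 symbols changed); 96 had several symbols and 1815 none. Several probes for 1 gene were averaged. Rows with at least 4 ratios per group were fitted by group and dye with limma 3.58.1 (R 4.3.3) and Benjamini-Hochberg adjustment over 8165 rows; the script was tested on simulated data. Genes given in full were those past 0.05 and the 6 of smallest p per compartment. Members and lists were chosen with earlier results of these data known. No sequences or coordinates were used here.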

Additional observations from a re-analysis of the deposited data

How the results depend on the processing

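Of the alternatives, 3 left 0 members called, namely no dye term, the replicate number as a block, and the cells in Cy3 only. The remaining ones left 1 called. With zeros and 1-channel values kept, and with a ratio required on all arrays, that member was ValRS and not beta-PheRS, which has only 10 ratios and was not tested where all were required. Without single arrays 1 member was called each time, beta-PheRS. Over all rows the count of calls was 132 with zeros kept, 187 without a dye term, 106 with the replicate block, 644 after median centring and 2 with the cells in Cy3 only, against 404. Without single arrays it ran from 117 to 549, and it was 267, 117 and 161 when mutant replicate 1, 4 or 6 was left out, and 144 and 152 when wildtype replicate 5 or 6 was. The split of 275 lower and 129 higher turned to 221 lower and 423 higher after median centring and to 170 lower and 290 higher after quantile normalization. These scalings moved the median difference of all rows by 0.21 and 0.22. The cause of these changes was not tested. Without single arrays the cytosolic median difference ran from -0.29 to -0.07 and the mitochondrial one from -0.29 to -0.09. The test of group by dye called 0 members in each setting where it was run (2 at an unadjusted p under 0.05 over all arrays). The replicate numbers were not taken to pair the samples, since not every pair passed 0.1: deviations of same-numbered samples from their group means correlated at 0.064 to 0.285, above 0.1 in 4 of 6 pairs, and 5 of 12 samples correlated best with their own number. With the replicate block beta-PheRS was at -1.56 (limma adjusted p = 0.0659) and eEF1alpha2 at -2.06 (limma adjusted p = 0.0825), so the block ended both calls. That of eEF1alpha2 also ended with zeros kept, values held at 8 in size, no dye term, either scaling, a ratio on at least 2 arrays per group and Cy3 only (adjusted p 0.00719 to 0.594 over its alternatives).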
